A study of Papio hamadryas with 11 samples.

Results

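The miR-200 family has 5 members counted here. The genes of hsa-miR-200b-3p, hsa-miR-200a-3p and hsa-miR-429 lie together in the genome (below, the miR-200b cluster), and those of hsa-miR-200c-3p and hsa-miR-141-3p lie together elsewhere (the miR-200c cluster). They were taken by name from a table of 1921 mature miRNAs, and each member had a single hairpin in it. The counts come from livers of 11 baboon fetuses (Papio hamadryas) near term, at 0.9 of gestation. The labels call 6 mothers control (3 female and 3 male fetuses) and 5 obese (3 female and 2 male fetuses), and state no other treatment or genotype. Livers are named below by maternal group and replicate number. The labels list separate samples without numbering animals or mothers, so the p-values describe the spread between these samples.

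MicroRNAs are short RNAs that guide silencing proteins to messenger RNAs, mostly through the seed, a short stretch near the 5′ end. Within this family, miR-200b, miR-200c and miR-429 share a seed, and miR-200a and miR-141 share another that differs from it by a single base. The family is abundant in epithelia, where it represses ZEB1 and ZEB2, transcription factors that silence E-cadherin and other epithelial genes, and ZEB1 in turn represses both miR-200 clusters. In the liver it is known as a feature of the epithelium of the bile ducts rather than of hepatocytes. Whole liver was sequenced, so fewer cells of a type and less RNA per cell cannot be told apart.

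Each control library held 247288 to 319919 reads on known miRNAs, and each library of the obese group 660569 to 767137, a ratio of means of 2.52. Depth and library number both separate the groups completely, so a batch of libraries and maternal obesity cannot be told apart. Levels are given as CPM, reads scaled to a library total of 1000000, after TMM scaling, a correction for differences in RNA composition, with no division by length, since a mature miRNA yields 1 short read. Liver identity was clear in every library: 7 hepatocyte miRNAs, among them miR-122-5p and miR-192-5p, together made up 406007 to 504231 CPM (for such summed lists, here and below, without TMM scaling). The family summed to 573 to 1556 CPM in controls and 721 to 1274 CPM with maternal obesity.

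The family's order of abundance was much the same from liver to liver. miR-200b-3p was the most abundant member, at 402 ± 130 CPM over all livers (SD, n = 11), and ranked 86 of 1921 names by mean level. It exceeded miR-200a-3p in 11 of 11 livers. miR-200a-3p (290 ± 82.1 CPM, n = 11) and miR-429 (281 ± 80.1 CPM, n = 11) were not separated beyond their spread, miR-200a-3p being the higher in 8 of 11 livers, 3 of them controls. miR-141-3p followed at 73.2 ± 78.1 CPM and lay under miR-429 in 10 of 11 livers. miR-200c-3p, with 11.2 ± 8.47 CPM and 0 to 19 reads per library, was the lowest member in every liver. Differences between miRNAs in ligation to the adapters enter such an order and were not measured.

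The clusters were therefore unequal. Of the 5471 family reads in the 11 libraries, 4945 came from the miR-200b cluster, and the miR-200c cluster supplied the remaining 9.61%.

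In control livers miR-200b-3p ran from 224 to 661 CPM with a median of 446, on 69 to 185 reads. With maternal obesity it stood at 400, 335, 361, 426 and 294 CPM in replicates 1 to 5. All 5 values lay inside the control range and below the control mean of 434 ± 170 CPM (n = 6). In the edgeR quasi-likelihood test the log2 fold change was -0.26 (SE 0.24, 95% interval -0.78 to 0.26, adjusted p = 0.525).

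miR-200a-3p, from the same cluster but with the other seed, ran from 149 to 428 CPM in controls (median 289). The 5 livers of the obese group had 337, 286, 233, 343 and 213 CPM, again inside the control range. Means were 296 ± 103 and 282 ± 58.9 CPM (n = 6 and 5), and the log2 fold change was -0.07 (SE 0.24, 95% interval -0.57 to 0.44, adjusted p = 0.899). Its sign turned positive in 6 of the alternative fits, 3 of which left out a library: 0.08 without replicate 3 and 0.04 without replicate 5 of the controls, and 0.05 without replicate 5 from obese mothers.

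miR-429 ran from 152 to 420 CPM in controls (median 326) and stood at 275, 261, 220, 289 and 201 CPM with maternal obesity. As for miR-200b-3p, all 5 values were inside the control range and below the control mean (308 ± 99.0 CPM). The log2 fold change was -0.31 (SE 0.22, 95% interval -0.77 to 0.16, adjusted p = 0.410). For all 3 members of this cluster, the livers of the obese group spanned a narrower range than the controls, with a highest-to-lowest ratio of the summed cluster of 1.49 against 2.71. Control replicate 6 was the lowest liver for each of the 3 members. The difference in spread was not tested.

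miR-141-3p behaved differently. In controls it ran from 22.7 to 92.1 CPM (median 27.2), the highest being replicate 4. With maternal obesity it reached 278 CPM in replicate 1 and 150 CPM in replicate 2, while replicates 3, 4 and 5 had 32.7, 58.3 and 33.0 CPM. Only the first 2 of these 5 livers, both from female fetuses, lay above every control, and the other 3 were within the control range. Reads per library were 7 to 25 in controls and 21 to 184 in the obese group. Means were 42.2 ± 28.3 and 110 ± 105 CPM (n = 6 and 5), with a log2 fold change of 1.40 (SE 0.59, 95% interval 0.14 to 2.65, unadjusted p = 0.0318), which did not pass after adjustment (adjusted p = 0.173, edgeR quasi-likelihood test). Without replicate 1 of the obese group the log2 value was 0.76. The expression filter asks for 31.3 CPM in 5 libraries. miR-141-3p met it in 5 of 5 libraries of the obese group and 2 of 6 controls, so it entered the test mainly through the group in which it was higher.

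miR-200c-3p, its cluster partner, did not pass the filter. In controls it had 4, 3, 1, 0, 2 and 2 reads in replicates 1 to 6, or 0 to 15.1 CPM. The 0 in replicate 4, the control with most miR-141-3p, allows up to 12.1 CPM before TMM scaling, taking 3 reads as the limit (counting error only). With maternal obesity it had 18, 19, 7, 9 and 4 reads, or 27.2, 25.1, 9.15, 12.2 and 6.28 CPM. Replicates 1 and 2 again stood above every control, and the other 3 overlapped the controls. In a fit with no filter on low counts its log2 value was 1.21 (SE 0.54, adjusted p = 0.278, edgeR). With all libraries thinned to 247288 reads it kept 0 to 3 reads in controls and 1 to 6 in the obese group, too few to show a difference at this depth. Thinned in the same way, miR-141-3p kept 67 and 30 reads in replicates 1 and 2, 7 in each of replicates 3 to 5, and 6 to 25 in controls.

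**Figure D1:**
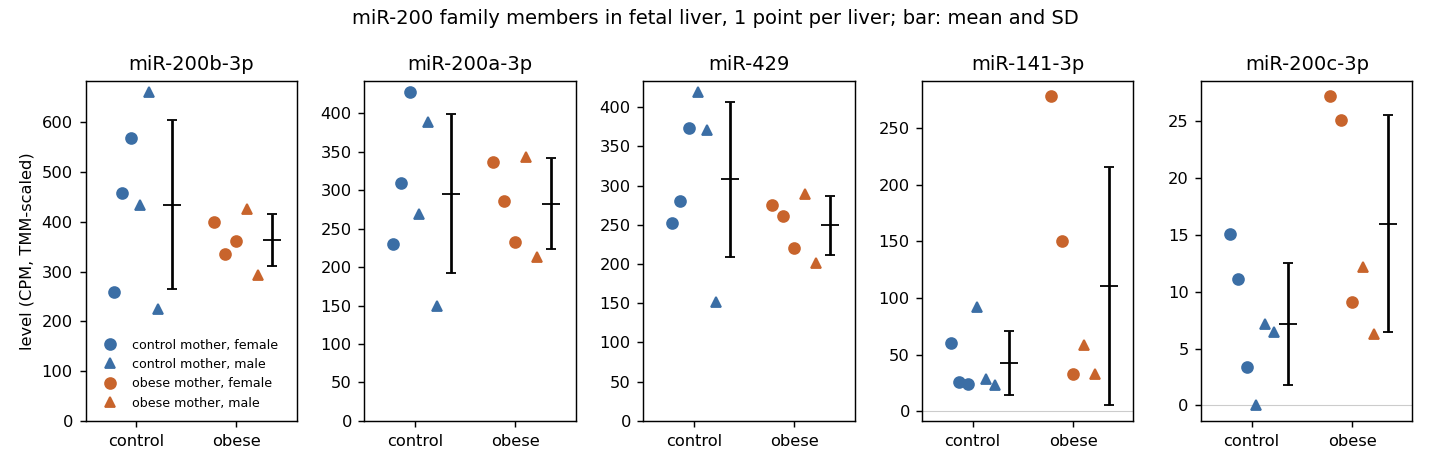
Level of each miR-200 family member in CPM (linear axes, a separate scale per panel), 1 point per fetal liver, coloured by maternal group and shaped by fetal sex, with the mean and SD of each group beside the points. The groups overlap for all 5 members, and for miR-141-3p and miR-200c-3p replicates 1 and 2 of the obese group, both female, stand above every control.

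Across the family, 0 of 4 tested members passed the threshold of adjusted p under 0.05 (edgeR), against 11% of all 218 miRNAs tested (4.59% higher and 6.42% lower). At an unadjusted p under 0.05 there was 1, miR-141-3p, beside 51 of all 218, and DESeq2 also called 0 members, beside 29 of all. The members' median log2 value was -0.16, beside -0.05 over all tested, with 3 negative values and 1 positive. For none of the 5 members were the groups free of overlap, where 8.26% of all tested miRNAs were (3.21% higher and 5.05% lower).

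Within female fetuses miR-141-3p stood at 60.2, 25.8 and 23.6 CPM in controls and at 278, 150 and 32.7 CPM with maternal obesity. Replicate 3 of the obese group fell among the controls while the other 2 did not. The log2 fold change was 2.07 (SE 0.73, 95% interval 0.47 to 3.67, adjusted p = 0.115, edgeR quasi-likelihood test), so 0 of 4 members passed in females, where 5.96% of all tested miRNAs did (2.75% higher and 3.21% lower). This depended on the fit, for miR-141-3p as for the total: DESeq2 called 19 of all miRNAs in females and edgeR with no filter 19 of 645. For miR-141-3p DESeq2 gave an adjusted p of 0.0246, edgeR with no filter 8.38e-06 and edgeR without replicate 3 of the obese group 0.0241.

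In male fetuses miR-141-3p stood at 92.1, 28.6 and 22.7 CPM in controls and at 58.3 and 33.0 CPM with maternal obesity, fully overlapping. The log2 fold change was -0.03 (SE 0.82, 95% interval -1.83 to 1.76), and without control replicate 4, the highest control, it was 0.81. In males 0 of 4 members passed (lowest adjusted p = 0.607 in edgeR, 0 at an unadjusted p under 0.05 and 0 in DESeq2), against 4.13% of all tested (1.83% higher and 2.29% lower). Over all 218 miRNAs, 41 had an unadjusted p under 0.05 in males and DESeq2 called 18. The other 3 members had log2 values between -0.27 and -0.18 in females and between -0.35 and 0.06 in males.

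The difference between the sexes in the miR-141-3p change was -2.10 on the log2 scale (male minus female, SE 1.12, 95% interval -4.54 to 0.33, adjusted p = 0.577, edgeR). Without control replicate 4 it was -1.26 and without replicate 1 of the obese group -1.42. Of all 218 miRNAs, 0% passed this test in edgeR, with 14 at an unadjusted p under 0.05 and 0 in DESeq2. With no filter on low counts 11 passed, and miR-141-3p was among them (log2 -2.15, adjusted p = 0.0349). Sex itself, with maternal group in the model, gave 0 of 4 members and 0% of all tested (22 at an unadjusted p under 0.05, 0 in DESeq2 and 6 with no filter). miR-141-3p was at log2 -0.83 in males over females there (adjusted p = 0.786), and between -1.34 and -0.33 with a library left out, the ends being without control replicate 4 and without replicate 5 of the obese group.

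**Figure D2:**
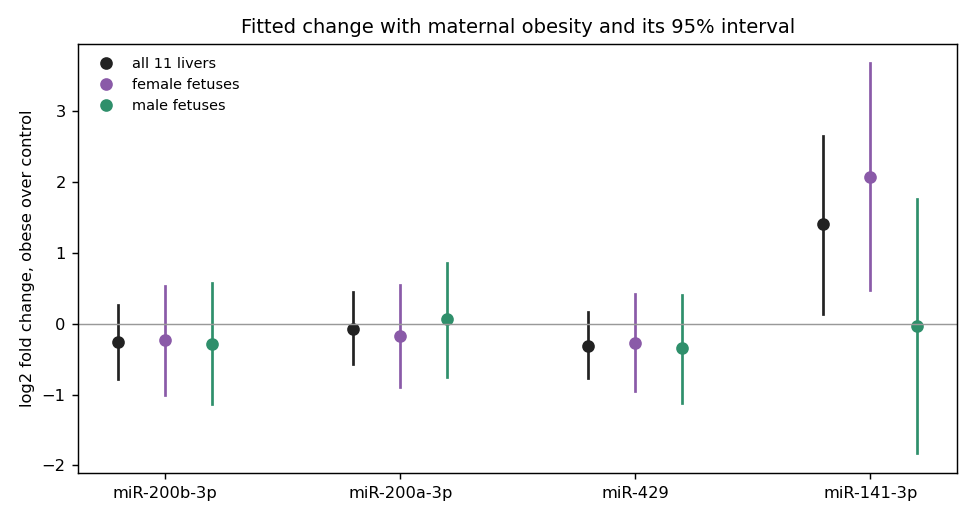
Fitted log2 fold change of the 4 tested members (obese over control, edgeR) with its 95% interval, over all 11 livers, in female fetuses and in male fetuses. Intervals of miR-200b-3p, miR-200a-3p and miR-429 all include 0, and those of miR-141-3p are the widest, reaching from 0.47 to 3.67 in females and from -1.83 to 1.76 in males.

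Set against each other, the clusters differed in how evenly they were expressed. The share of family reads from miR-200c-3p and miR-141-3p ran from 1.93% to 9.22% in controls (median 4.33%). With maternal obesity it was 23.2% in replicate 1, with a 95% Wilson interval of 20.5% to 26.1%, and 16.6% (14.2% to 19.3%) in replicate 2. In replicates 3, 4 and 5 it was 4.89%, 6.25% and 5.25%, within the control range. The intervals of replicates 1 and 2 overlapped that of no other library, nor each other's. Such intervals cover counting error only, since reads without molecular identifiers are not independent molecules.

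As a log2 ratio of the miR-200c cluster to the miR-200b cluster, controls averaged -4.42 ± 0.93 (n = 6) and the obese group -3.27 ± 1.16 (n = 5). The difference of 1.15 was close to the SD within groups, 1.04, and it was 0.77 without replicate 1 of the obese group. Grouped by seed instead (miR-200a-3p and miR-141-3p over miR-200b-3p, miR-200c-3p and miR-429), the log2 ratio was -1.13 ± 0.16 in controls and -0.75 ± 0.39 with maternal obesity. The highest values were again those of replicates 1 and 2, at -0.19 and -0.51. These ratios are descriptions of the chosen members and carry no test.

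**Figure D3:**
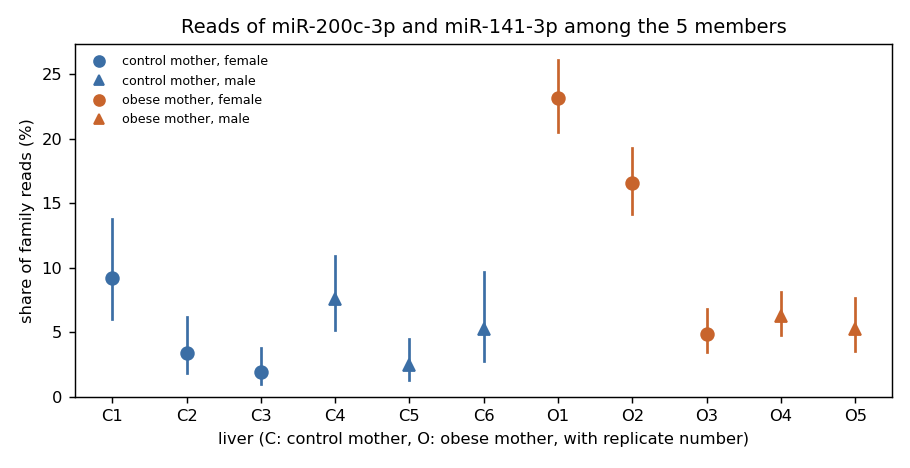
Share of family reads that came from miR-200c-3p and miR-141-3p in each liver (percent), with 95% Wilson intervals for counting error; C marks control mothers, O obese mothers, with the replicate number. O1 and O2 stand at 23.2% and 16.6%, and the other 9 livers lie between 1.93% and 9.22%.

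Inside the miR-200b cluster the proportions hardly moved. Over the 11 livers miR-200b-3p held 41.1% ± 3.24 of the cluster's reads, miR-200a-3p 29.9% ± 2.71 and miR-429 29.1% ± 3.50. Control replicate 4 was furthest from this, with 23.9% miR-200a-3p and 37.4% miR-429.

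Levels of the 3 members accordingly went up and down together across livers. On log2 CPM, miR-200a-3p and miR-200b-3p had a Pearson r of 0.90 and a Spearman rho of 0.86 (n = 11, permutation tests, adjusted p = 7.80e-04 and 0.00354 over 6 pairs). For miR-200b-3p and miR-429 r was 0.84 and rho 0.87 (permutation tests, adjusted p = 0.00426 and 0.00354). For miR-200a-3p and miR-429 r was 0.82 and rho 0.79 (permutation tests, adjusted p = 0.00426 and 0.0112). Leaving out the 2 livers furthest from the median of the measure named first gave r of 0.83, 0.72 and 0.62. Within the 6 controls the r values were 0.94, 0.84 and 0.84, of which the first passed an exact permutation test after adjustment (adjusted p = 0.0250, against 0.0639 for both others). The rho of none of the 3 pairs passed there (lowest adjusted p = 0.10, exact permutation test). No value is given for the obese group alone, since its 5 livers are fewer than the 6 required here for a correlation. Without control replicate 6, the lowest liver for all 3 members, the miR-200a-3p and miR-429 pair no longer passed (r = 0.69, permutation test, adjusted p = 0.0586).

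For miR-141-3p no correlation with the members of the miR-200b cluster passed. Its r was 0.17 with miR-200a-3p, with which it shares a seed, -0.07 with miR-200b-3p and 0.20 with miR-429 (n = 11, permutation tests, adjusted p = 0.726, 0.827 and 0.726). The rho values were 0.00, -0.16 and 0.11 (permutation tests, adjusted p = 1.00, 0.904 and 0.904). Without the 2 livers furthest from the median of the first-named member, here miR-141-3p for the pair with miR-429, r was 0.17, -0.20 and 0.40. Within controls r was -0.12, -0.15 and 0.39 (exact permutation tests, adjusted p = 0.835, 0.835 and 0.683). The rho values there were -0.03, 0.09 and 0.49, and none passed (lowest adjusted p = 0.533, exact permutation test). With 7 to 25 reads of miR-141-3p per control library, counting error weighs more on these values than on those within the miR-200b cluster. miR-200c-3p had too few reads for a correlation, so none is given between miR-141-3p and its own cluster partner. Whether the pairs inside the cluster differ in r from the pairs across clusters was not tested.

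**Figure D4:**
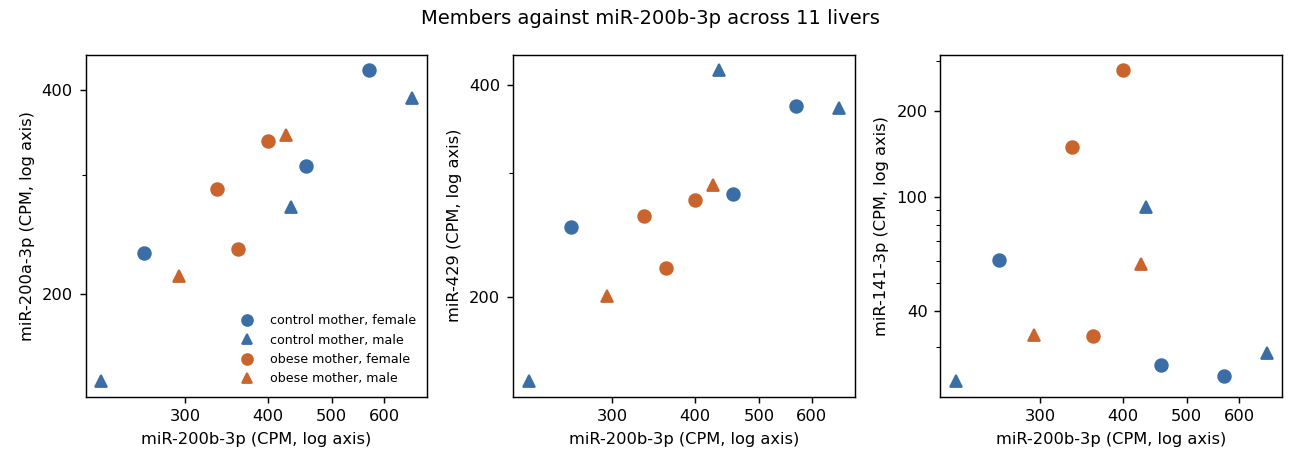
miR-200a-3p, miR-429 and miR-141-3p against miR-200b-3p in CPM on log axes, 1 point per liver (n = 11), coloured by maternal group and shaped by fetal sex. The points rise together for miR-200a-3p (r = 0.90) and miR-429 (r = 0.84) and show no common direction for miR-141-3p (r = -0.07).

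Spread between livers of the same group also set miR-141-3p apart from its relatives. Its within-group SD on log2 CPM was 1.09, the 3rd highest of 218 tested miRNAs and the 2nd highest of the 77 whose mean level lay within 2-fold of its own. The median SD was 0.33 over all tested and 0.45 over those 77. For miR-200b-3p, miR-200a-3p and miR-429 it was 0.48, 0.46 and 0.43, ranking 51, 59 and 74 of 218.

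Among all tested miRNAs, those most like each member were found by Pearson r of log2 CPM over the 11 livers after each maternal group's mean had been taken off, as a description. For miR-200a-3p they were miR-200b-3p (0.92), miR-429 (0.86) and miR-148b-5p (0.80), and for miR-200b-3p they were miR-200a-3p, miR-429 (0.84) and miR-425-3p (0.75). The leading pair for each of the 3 clustered members was thus its own cluster partners, out of 217 miRNAs compared. For miR-429 the third was miR-140-3p (0.78). For miR-141-3p no family member was among the 3, the highest being miR-429 at 0.40. The closest were miR-424-5p (0.78, but 0.15 before the group means were removed), miR-30a-5p (0.76, or 0.81) and miR-145-5p (0.74, or 0.52). miR-145-5p belongs to smooth muscle and other mesenchymal cells. miR-30a-5p was at 6034 and 5610 CPM in replicates 1 and 2 of the obese group, and between 3654 and 4668 CPM in the other 9 livers.

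In the livers with high miR-141-3p, the summed mesenchymal and muscle miRNAs were higher than in any other liver. The 8 listed mesenchymal miRNAs summed to 134746 and 148779 CPM in replicates 1 and 2 of the obese group. They summed to 77938 to 95638 CPM in controls and 90048 to 99421 CPM in replicates 3 to 5. Most of that sum was miR-143-3p, a smooth muscle miRNA, at 125473 and 111689 CPM in those livers and at most 90383 CPM in the other 9. Of the 8, 4 were above every control in both livers (miR-143-3p, miR-145-3p, miR-199a-5p and miR-199b-5p). The other 4 were not: miR-199a-3p, for example, was at 3108 and 3220 CPM there and at 3268 CPM in control replicate 1, and miR-214-3p at 172 and 156 CPM against up to 173 CPM in controls. miR-145-3p was above every control in all 5 livers of the obese group (86.8 to 169 CPM, against up to 67.8 CPM in controls). In replicate 3 it was at 124 CPM, above replicate 2 at 113 CPM. miR-199b-5p, singled out after its values were seen, was at 337 and 376 CPM in replicates 1 and 2 of the obese group and at 58.9 to 166 CPM in the other 9. miR-10b-5p, from a Hox gene cluster, was at 8981 and 24317 CPM there and at 13879 CPM in control replicate 1. That control had the highest share of the miR-200c cluster among controls. Its miR-141-3p was at 60.2 CPM, below the 92.1 CPM of control replicate 4. In the remaining 8 livers miR-10b-5p ran from 2050 to 3935 CPM, with 3045 CPM in control replicate 4. The 4 muscle miRNAs (miR-1, miR-133a, miR-133b and miR-206) summed to 92.1 and 1011 CPM in replicates 1 and 2, against 15.3 to 65.2 CPM in controls and 21.2 to 51.4 CPM in replicates 3 to 5. In replicate 2 miR-1 had 324 reads, miR-133a 346, miR-133b 31 and miR-206 25. miR-206 had 28 reads in all and was at 0 reads in 8 of the 11 libraries. Control replicate 4, the control with most miR-141-3p, had no such excess, at 86959 CPM for the mesenchymal and 28.3 CPM for the muscle list. That library was unlike the other controls in further ways. It had the fewest reads (247288) and the highest TMM factor (1.102). It had 2150 CPM of miR-194-5p, against 4828 to 6588 CPM in the other controls, and 177 CPM of miR-199a-5p, against 381 to 535 CPM. Replicates 1 and 2 of the obese group had the highest endothelial sums (16447 and 18056 CPM, against 8685 to 15694 CPM elsewhere). They also had the lowest hepatocyte sums, at 430669 and 406007 CPM against 435590 to 504231 CPM in the other 9 livers. Not every hepatocyte miRNA was low there. miR-122-5p was lowest in these livers, at 129473 and 103666 CPM against 139041 to 212521 CPM in the other 9. miR-192-5p, the most abundant of the list, was at 239113 and 217766 CPM, within the 193086 to 258705 CPM of the other 9. The part of other tissue or cells in the miR-141-3p values was not tested.

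**Figure D5:**
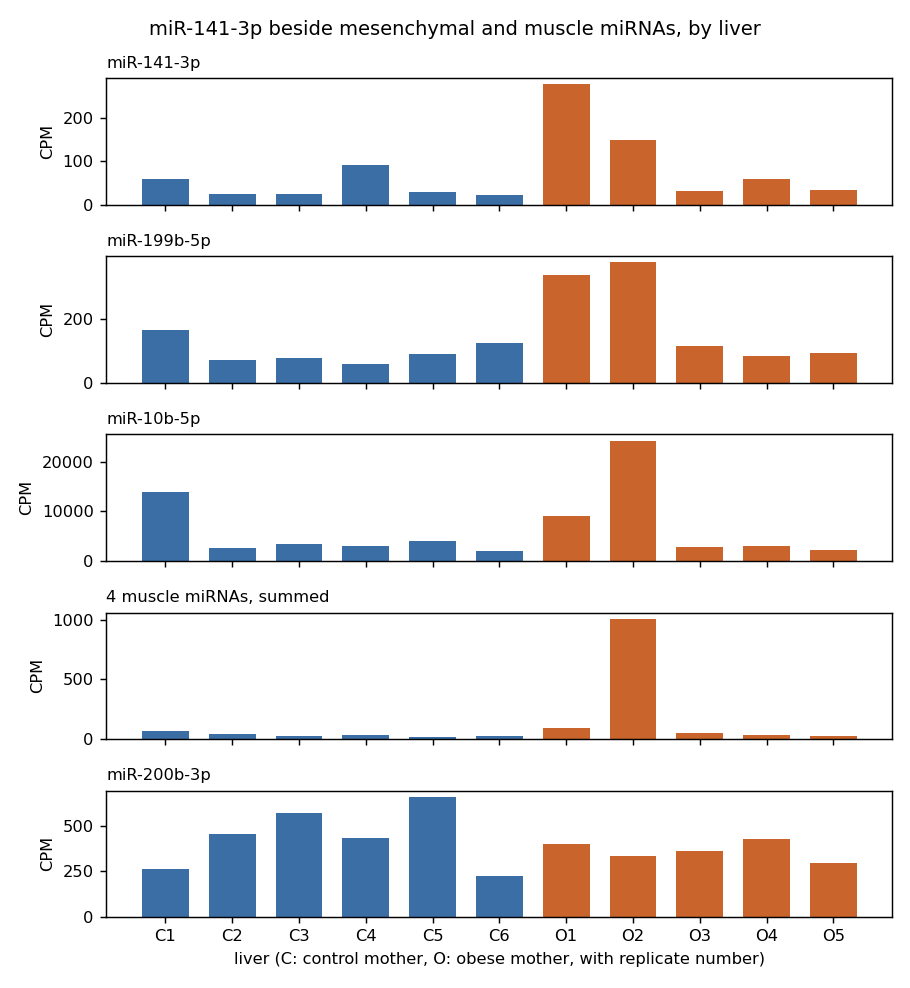
Level in CPM by liver (bars from 0, a separate linear scale per panel) of miR-141-3p, miR-199b-5p, miR-10b-5p, the summed muscle miRNAs (without TMM scaling) and miR-200b-3p. O1 and O2 are highest for miR-141-3p (278 and 150 CPM) and miR-199b-5p (337 and 376 CPM), while miR-200b-3p in them (400 and 335 CPM) lies within the control range.

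Other epithelial miRNAs gave a mixed picture beside the family. Of 8 listed, 3 passed the filter, and 2 of these rose with maternal obesity, where 4.59% of all 218 tested miRNAs rose. miR-183-5p went from 17.6 ± 9.84 to 57.9 ± 17.8 CPM (adjusted p = 0.00307, edgeR). It had 2 to 10 reads per library in controls and 33 to 57 in the obese group. Like miR-141-3p, it entered the test mainly through the group in which it was higher. miR-182-5p went from a control range of 81.0 to 212 CPM to 259 to 538 CPM (adjusted p = 0.00648, edgeR). miR-183-5p and miR-182-5p, sensory and epithelial miRNAs from a cluster of their own, were highest in replicate 5 of the obese group (89.5 and 538 CPM), a liver with 33.0 CPM of miR-141-3p. Replicates 1 and 2 had 49.8 and 50.1 CPM of miR-183-5p and 279 and 281 CPM of miR-182-5p. miR-96-5p, from the same cluster, was below the filter, with 0 to 4 reads per library. It was at 4.20 ± 3.56 CPM in controls and 4.82 ± 1.37 CPM with maternal obesity. miR-375, made by endocrine and some other epithelial cells, had 991 ± 170 CPM in controls and 1219 ± 299 CPM with maternal obesity, a difference that did not pass (log2 0.30, adjusted p = 0.311 in edgeR). miR-203 and miR-205-5p, known from squamous epithelia, were below the filter, at 3.24 to 31.2 and 0 to 37.7 CPM. The highest miR-205-5p was in control replicate 1. miR-7-5p was below the filter as well, at 0 to 18.4 CPM in controls and 7.84 to 29.8 CPM with maternal obesity. miR-31-5p was at 24.2 and 17.1 CPM in replicates 1 and 2 of the obese group and at 18.8 and 13.5 CPM in control replicates 1 and 3, so the groups overlapped, with 0 reads in the other 4 controls.

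Of all 218 tested miRNAs 4.59% rose and 6.42% fell, so a single call in a short list says little about its cell type. Of the other lists, 1 of 8 mesenchymal miRNAs rose (miR-145-3p, from 45.7 ± 12.8 to 120 ± 30.8 CPM, adjusted p = 0.00229 in edgeR) and 1 of 2 endothelial miRNAs rose (miR-126-5p, log2 0.46, adjusted p = 0.0476). Of 4 erythroid miRNAs 0 passed in edgeR, also at an unadjusted p under 0.05, and the lowest p was that of miR-451a (log2 -0.55, adjusted p = 0.226). Of 7 hepatocyte miRNAs, 1 fell (miR-885-5p, log2 -1.01, adjusted p = 0.00370), while miR-122-5p, the most specific hepatocyte miRNA, had a log2 value of -0.28 that did not pass over all livers (adjusted p = 0.300, edgeR). In females miR-122-5p fell (log2 -0.66, adjusted p = 0.0320, edgeR), and in males its log2 value was 0.19 (adjusted p = 0.545). The difference between the sexes did not pass (log2 0.85, adjusted p = 0.395). Of 5 tested leukocyte miRNAs, 1 fell (miR-146a-5p, log2 -0.66, adjusted p = 0.0117). Of 5 miRNAs listed for pancreas and gut, the neighbours of the liver, only miR-215 was tested. It rose (log2 0.50, adjusted p = 0.0160, edgeR) and stood at 1403 to 2962 CPM over the 11 livers. Whether miR-215 came from the liver itself or from a neighbour was not tested. The pancreatic miR-216a was at 11.3 to 30.3 CPM in controls and 22.6 to 69.2 CPM with maternal obesity, highest in replicate 3 and not in the livers with high miR-141-3p.

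The opposite strands of the hairpins were rare. miR-200a-5p had 79 reads in all against 1507 of miR-200a-3p, or 4.98% of the locus (95% Wilson interval 4.01% to 6.16%), and the share was 5.30% in controls and 4.82% with maternal obesity, within each other's intervals (3.69% to 7.56% and 3.69% to 6.28%). miR-200b-5p had 15 reads, or 0.733% of its locus (0.445% to 1.21%). miR-141-5p had 2 reads, both in replicate 1 of the obese group, the liver with most miR-141-3p. miR-200c-5p had 0 of 69 reads of its locus, which allows a share of up to 4.35%.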

How the data were processed

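Small RNA libraries were read with 36 cycles, 12 to a lane, per the labels' protocols. The authors deposited unscaled whole-number counts for each mature miRNA and hairpin, and a normalised signal, in a workbook named for miRDeep2, per the file headers. The signal equals each count scaled to a column total of 1000000 within 0.005 and was used only for this check. The submitters' processing notes name hg18, and the miRNA names are human. How many mismatches were allowed is not stated, so miR-200b-3p and miR-200c-3p, or miR-200a-3p and miR-141-3p, may exchange reads. The known table repeats its 2234 rows below themselves, and 1 copy was used, with the highest-total hairpin for each of 1921 names. A table of predicted miRNAs (22 sample columns) was not used.

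Tests used edgeR 4.0.16 (R 4.3.3), quasi-likelihood with TMM. Its default filter left 218 miRNAs, with at least 99.62% of every library's reads. Benjamini-Hochberg adjustment ran over all tested. Effects within each sex were contrasts between the means of the 4 combinations of group and sex. SE is the log2 value divided by the root of F. Correlations used log2 CPM with 0.5 reads added, for members averaging at least 10 reads, with 100000 resamples (within controls, exact). Cluster ratios had 0.5 reads added to each sum. Scripts were tested on simulated data. Alternatives covered scaling, filter, DESeq2 1.42.0, limma-voom (limma 3.58.1), hairpin rows, sex, thinning, summing near-identical members and leaving out each library. Replicate numbers do not pair the livers: deviations of same-numbered livers correlated at -0.172 to 0.303.

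Members and lists were chosen with earlier results of these data known. Named miRNAs were the members, their opposite arms, the 2 most abundant and the lowest-p miRNA of each list, and the 3 most alike per tested member. miR-199b-5p, miR-203, miR-205-5p, miR-31-5p, miR-199a-5p, miR-199a-3p, miR-214-3p, miR-206 and miR-133b were named outside that rule, after their values were seen. So were miR-96-5p, miR-7-5p and miR-194-5p. miR-203a and miR-216a-5p are listed as miR-203 and miR-216a.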

Additional observations from a re-analysis of the deposited data

Results flagged for a closer look

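miR-141-5p, the opposite arm of miR-141-3p, was at 3.02 CPM in replicate 1 of the obese group and at 0 in the other 4 livers of that group, which set this liver far from the rest. The value rests on 2 reads, and with 0 in the other 4 livers any read would set a liver apart in this way. A rate of about 1 in 20 groups set apart by chance, with 27 groups examined, cannot be taken to hold for counts near 0.

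The workbook also holds a column of pooled read counts, which over all miRNAs is 15.1 times the sum of the 11 liver libraries. In that column of the authors' deposited table, 46.9% of family reads belong to miR-200c-3p and miR-141-3p, against 9.61% in the sum of the 11 livers. Single livers had 1.93% to 23.2%, with a median of 5.26%. What was pooled is not stated, and a header row left in the workbook numbers libraries up to 96.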

How the results depend on the processing

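The count of members past the threshold stayed at 0 over all livers, in males and for sex in every fit. In females it was 1 (miR-141-3p) with DESeq2 (log2 2.11, beside 19 of all miRNAs) and with no filter (2.16, beside 19 of 645), and 0 to 1 with a library left out. For the difference between sexes it was 1 with no filter (miR-141-3p, -2.15). The miR-200a-3p log2 value reversed to 0.01 with no filter, 0.03 after thinning and 0.25 when summed with miR-141-3p, and in males to -0.10 with total counts; miR-141-3p in males went to 0.01 with no filter. With a library left out, ranges were -0.20 to 0.08 for miR-200a-3p over all livers, -0.37 to 0.06 in females and -0.27 to 0.46 in males. They were -0.49 to 0.00 in females and -0.59 to 0.17 in males for miR-200b-3p, and for miR-141-3p 0.76 to 1.77 over all livers, -0.46 to 0.81 in males, -2.66 to -1.26 for the difference between sexes and -1.34 to -0.33 for males over females. The cluster ratio difference ran from 0.77 to 1.40. The correlation of miR-141-3p ran from -0.01 to 0.34 with miR-429, -0.06 to 0.38 with miR-200a-3p and -0.31 to 0.06 with miR-200b-3p, and that of miR-200a-3p with miR-429 from 0.69 to 0.97. The cause of these shifts was not tested.

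Over all miRNAs, 24 passed; the replicate block gave 15, changed no member's call and set miR-141-3p at log2 1.00. In females 13 passed, 5 with hairpin rows summed and 0 to 25 with a library left out (0 without control replicate 1 or 3 or replicate 2 of the obese group, 25 without control replicate 4). In males 9 passed, 27 with no filter, 18 with DESeq2 and 0 to 13 with a library left out (13 without control replicate 5, and 0 to 3 without any other). The difference between sexes gave 11 and sex 6 with no filter, from 0. Total counts moved the split to 8 higher and 3 lower in females (from 6 and 7) and 3 and 8 in males (from 4 and 5), RLE factors to 6 and 5 in males, and total counts moved the median of all miRNAs to -0.19 in males and -0.33 for the difference between sexes. Thinning left miR-141-3p below the filter. Depth limits miR-200c-3p and the 5p arms, and leaving out a male of the obese group left 1, assumed to vary like the other groups.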
